A study of Mus musculus with 77 samples.

Results

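Chow reversal for 24 weeks was compared with continued diet and vehicle in livers of DIO-MASH mice, a mouse model of metabolic dysfunction-associated steatohepatitis induced by diet and obesity. The comparison takes 15 of the 77 liver libraries of the series, namely the 8 whose treatment label was Chow_reversal_24_w and the 7 labelled Vehicle_24_w, each from 1 mouse. All mice were male C57BL/6JRj and the labels name no engineered allele or transgene. Both groups arrived at 5 to 6 weeks of age and ate the Gubra Amylin NASH diet, which takes 40% of its energy from fat and contains 22% fructose, 10% sucrose and 2% cholesterol, for 34 weeks before treatment began. Both also underwent a liver biopsy 4 weeks before treatment, were housed singly from then on, were admitted by their steatosis and fibrosis scores and were randomized by the collagen-stained area of the biopsy. The vehicle mice stayed on that diet and received vehicle injections, whereas the reversal mice were moved to regular chow and received the same vehicle. Fat, fructose, sucrose and cholesterol were thus withdrawn together, so their separate contributions cannot be told apart here. The other groups at 24 weeks were DIO-MASH mice on the diet given semaglutide, an agonist of the GLP-1 receptor, at 123 µg per kg (8 mice), and vehicle-dosed mice that had always eaten chow (7 mice). According to the paper, the chow mice were age-matched and were not randomized.

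The liver makes cholesterol through the mevalonate pathway, whose genes are switched on by the transcription factor SREBP2 when sterols in the endoplasmic reticulum are scarce and are kept low when dietary cholesterol is plentiful. In steatohepatitis, injured fat-laden hepatocytes, recruited monocyte-derived macrophages that take up lipid, and stellate cells that lay down collagen are found together. A return to normal food is used as a positive control for how far such a liver can recover. Here each group of genes is described as a list of members, with the number whose level differed between reversal and vehicle.

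Levels are given as CPM, counts scaled to library size, after TMM normalization, and they can be compared between mice for 1 gene but not between genes, because they are not corrected for gene length. Differences are log2 fold changes, reversal relative to vehicle, with their standard error (SE), from edgeR's quasi-likelihood test fitted to all 77 libraries. All p-values were adjusted by the Benjamini-Hochberg procedure across 14904 genes, with 0.05 as the threshold, and "rose" and "fell" are used only of genes past it. These p-values weigh each difference against the spread between mice, which was estimated from all 10 groups together and not from the compared mice alone.

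The 2 groups had similar depth, from 13181317 to 19739109 counts per library in reversal mice and from 13947586 to 20290677 in vehicle mice. The labelled tissue matched its markers: all 12 hepatocyte markers were detected, with a summed level of 129000 to 153100 CPM in reversal mice and 77840 to 101000 CPM in vehicle mice. In a principal component analysis of all 77 libraries over 1000 genes, component 1 (29.8% of the variance) placed the vehicle mice of 24 weeks from -40.1 to -29.4 and the chow mice from 26.6 to 49.2. The reversal mice were spread between these: replicate 7 lay at -13.8, replicate 6 at 10.5 and replicate 2 at 14.8, and the other 5 lay from 24.6 to 33.7. Replicates 7 and 8 were also least like the rest of their group, with a Spearman correlation with the mean of the other reversal mice of 0.9594 and 0.9657, and vehicle replicate 3 had 0.9592. The median standard deviation of log2 CPM over 10298 genes was 0.308 in reversal mice at 24 weeks and 0.272 in vehicle mice. It was 0.321 in the semaglutide mice and 0.207 in the chow mice of 24 weeks. At 8 and 16 weeks it was 0.2 and 0.19 in reversal mice and 0.197 and 0.26 in vehicle mice. Without replicate 8 the value for the reversal mice of 24 weeks was 0.273, and without replicate 7 it was 0.292.

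**Figure D1:**
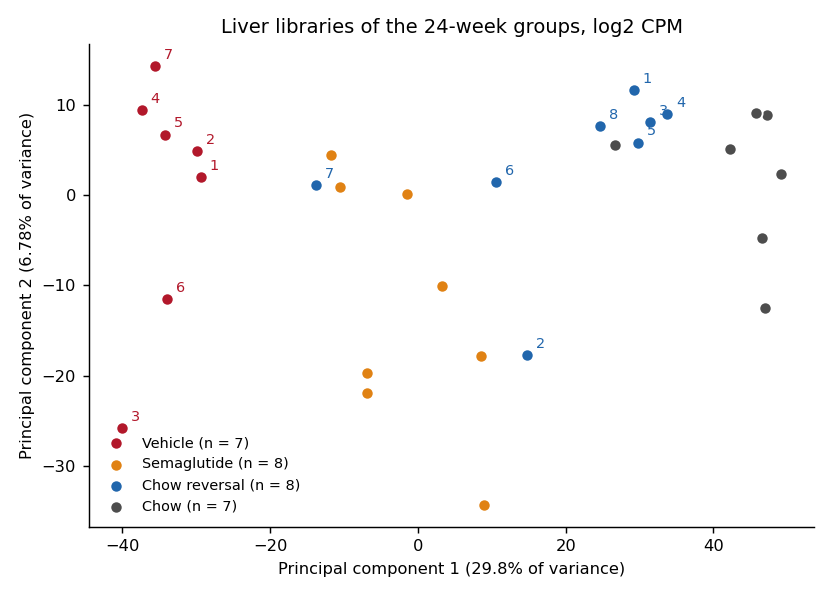
Liver libraries of the 4 groups at 24 weeks on the first 2 principal components of log2 CPM over all 77 libraries, 1 point per mouse, with replicate numbers beside reversal and vehicle mice and the share of variance on each axis. Reversal replicate 7 sits at -13.8 on component 1, between the vehicle mice (-40.1 to -29.4) and most of its own group.

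Chow reversal changed a large part of the liver transcriptome, and the falls were larger than the rises. Of 14904 genes, 5379 (36.1%) were past the threshold (6626, 44.5%, at an unadjusted p under 0.05), with 2530 (17%) higher and 2849 (19.1%) lower in reversal mice. At least 2-fold differences were found for 404 genes that rose and 1501 that fell, and at least 4-fold differences for 115 and 280. The median log2 fold change was 0.5 among genes that rose, -1.06 among genes that fell and 0.044 over all genes tested. Every reversal mouse lay above every vehicle mouse for 262 genes (1.76%) and below for 768 (5.15%), together 6.91%. With only these 2 groups in the fit, 3585 of 13632 genes were past the threshold. Scaling by library totals alone moved the median over all genes to -0.258 and the counts to 687 higher and 5453 lower, so the split into rises and falls rests on the TMM scaling, while the lists below are read relative to all genes.

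**Figure D2:**
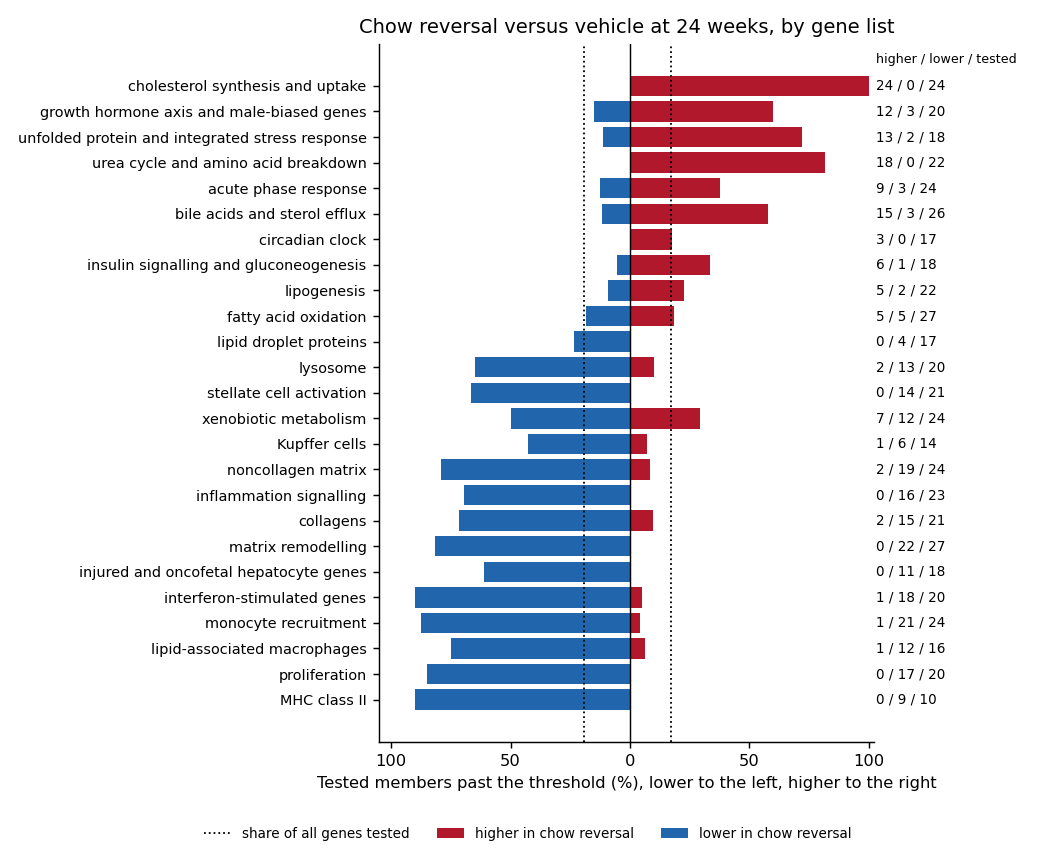
Share of the tested members of each of 25 gene lists that were past the threshold at 24 weeks, lower in reversal mice to the left and higher to the right, with counts at the right and dotted lines at the shares over all genes (19.1% lower, 17% higher). All 24 tested members of the cholesterol list were higher, whereas 9 of 10 MHC class II members and 18 of 20 interferon-stimulated members were lower.

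Cholesterol synthesis was the list with the most uniform rise. All 24 of its tested members were higher, against 17% of all genes, with a median log2 fold change of 2.23, and for 22 of 24 no reversal mouse overlapped a vehicle mouse, against 1.76% of all genes. The rise ran along the whole route, from Hmgcs1 at its start through Idi1 and Sqle to the late sterol enzymes Cyp51, Msmo1 and Tm7sf2. The 300 bases around the start sites of Hmgcs1, Idi1 and Cyp51 are shown because these 3 genes span the route and rose in every mouse. They are from RefSeq on GRCm38.p6, each from 250 bases before to 50 after the start, at chr13:119690101-119690400 (plus strand), chr13:8885356-8885655 (plus strand) and chr5:4104648-4104947 (minus strand). Capitals mark every match on either strand to CCAAT, the box bound by NF-Y, and to TCACNCCAC, the core of a sterol regulatory element:
Hmgcs1: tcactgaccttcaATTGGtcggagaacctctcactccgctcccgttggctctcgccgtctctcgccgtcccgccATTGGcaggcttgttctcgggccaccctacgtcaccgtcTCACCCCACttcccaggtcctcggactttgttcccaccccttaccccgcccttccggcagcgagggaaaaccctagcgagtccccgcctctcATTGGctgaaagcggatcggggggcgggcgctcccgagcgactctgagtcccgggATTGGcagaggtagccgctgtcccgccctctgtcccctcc
Idi1: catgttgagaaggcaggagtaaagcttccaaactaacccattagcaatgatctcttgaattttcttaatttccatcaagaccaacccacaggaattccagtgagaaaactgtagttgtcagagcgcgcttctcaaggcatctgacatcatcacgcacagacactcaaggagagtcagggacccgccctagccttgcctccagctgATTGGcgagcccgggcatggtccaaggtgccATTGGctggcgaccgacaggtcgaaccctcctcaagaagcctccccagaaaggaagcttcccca
Cyp51: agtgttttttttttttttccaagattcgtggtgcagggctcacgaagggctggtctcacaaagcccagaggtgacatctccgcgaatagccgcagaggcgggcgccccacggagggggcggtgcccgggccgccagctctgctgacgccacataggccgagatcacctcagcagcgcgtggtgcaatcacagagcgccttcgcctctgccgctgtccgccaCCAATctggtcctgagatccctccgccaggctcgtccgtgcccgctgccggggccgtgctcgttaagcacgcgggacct
Of the 24 listed genes, 16 had a promoter in the table, and all 16 had a CCAAT box in at least 1 of their 19 promoters (16 of 19 promoters, against 37.4% of all 32851). The sterol element core was found in 1 of the 19, that of Hmgcs1, against 1.24% of all promoters. A match is a string of letters and not a measured binding site.

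The levels show how far apart the groups stood. Sqle, squalene epoxidase (chr15:59315077-59331192, plus strand), was at 1.34, 1.96 and 2.44 CPM (lowest, median, highest) in the vehicle mice and at 65.9, 99.6 and 176 CPM in the reversal mice. No mouse came near the other group, and the log2 fold change was 5.91 ± 0.40 (SE; adjusted p = 5.4e-20). Idi1, isopentenyl-diphosphate isomerase, was at 9.95, 17.8 and 22.9 CPM under vehicle and at 212, 299 and 914 CPM in reversal mice (4.45 ± 0.29, adjusted p = 1.7e-20). Replicate 8 alone gave the value of 914, and the next mouse had 383. Hmgcs1, the synthase at the start of the route, rose by 2.78 ± 0.19 (adjusted p = 1.8e-19), and Cyp51, lanosterol demethylase, by 3.23 ± 0.21 (adjusted p = 6.9e-21). Srebf2, which encodes SREBP2, rose by 0.98 ± 0.11 (adjusted p = 4.3e-11). Replicate 7 did not stand apart in this list: its score, the mean log2 CPM of the members relative to the vehicle mean, was 2.25, within the range of 2.13 to 2.51 over the 8 mice.

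Both subunits of the sterol pump fell, while most bile acid genes past the threshold rose. Abcg5, which with Abcg8 forms the pump that sends cholesterol into bile, was at 133, 168 and 208 CPM in vehicle mice and at 29.3, 54 and 80.6 CPM in reversal mice. The groups did not overlap, and it fell by 1.61 ± 0.18 on the log2 scale (adjusted p = 2.5e-11). Abcg8 also fell (-0.99 ± 0.19, adjusted p = 2e-05), as did Abcc4, an exporter of bile acids at the sinusoidal side (-2.95 ± 0.39, adjusted p = 4.7e-09). In all, 15 of 26 tested members of the bile acid and sterol efflux list rose and 3 fell, with a median of 0.58. The shares over all genes were 17% and 19.1%. Slc10a1, the main uptake carrier for bile acids, was at 111, 142 and 188 CPM under vehicle and at 95.7, 556 and 731 CPM in reversal mice (1.79 ± 0.21, adjusted p = 6.1e-11). The lowest reversal value belonged to replicate 7, and the other 7 reversal mice lay at 398 or above. Cyp7a1, the rate-limiting enzyme of bile acid synthesis, overlapped widely, at 17.2, 80.7 and 106 CPM against 31.6, 111 and 306 CPM, and was not past the threshold (0.97 ± 0.48, adjusted p = 0.11). Cyp8b1, which sets the share of cholic acid, rose by 1.60 ± 0.33 (adjusted p = 6.9e-05), and Baat, which conjugates bile acids, by 0.64 ± 0.10 (adjusted p = 5.5e-07).

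Genes of fatty acid metabolism moved little as groups. Of 22 lipogenesis genes 5 rose (Acly, Elovl3, Lpin1, Mlxipl and Fads1) and 2 fell (Srebf1 and Scd1), with a median of 0.17, against 17% and 19.1% of all genes. Scd1, the desaturase that makes oleate, was at 12400, 18900 and 23300 CPM in vehicle mice and at 7070, 9870 and 11600 CPM in reversal mice. These ranges did not meet, and the log2 fold change was -0.91 ± 0.19 (adjusted p = 8.3e-05). Fasn, fatty acid synthase, overlapped and was not past the threshold, at 571, 721 and 1070 CPM against 572, 1080 and 1400 CPM (0.41 ± 0.39, adjusted p = 0.44). Elovl3, an elongase of very long chains, had a median of 13.9 CPM (8.55 to 24.4) under vehicle and 124 CPM (7.01 to 232) after reversal, where replicate 7 had the value of 7.01 (3.05 ± 0.50, adjusted p = 7.9e-07). Lpin1, a phosphatidate phosphatase, rose by 1.46 ± 0.36 (adjusted p = 0.00095), and replicate 8 stood at 797 CPM where the reversal median was 170 CPM.

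Of 17 lipid droplet genes 4 fell (Plin3, Plin4, Cidec and Hilpda) and 0 rose, with a median of -0.2. The share that fell was near the 19.1% of all genes that fell, and 17% of all genes rose. Plin4, a coat protein, fell from a median of 78.7 CPM (44.7 to 91.4) to 20.3 CPM (10.1 to 59.1), by 1.39 ± 0.33 on the log2 scale (adjusted p = 0.00044). Cidec, which fuses droplets into larger ones, was at 51.7, 89.6 and 108 CPM in vehicle mice and at 1.53, 39 and 117 CPM in reversal mice. Its extremes were replicate 7 at the bottom and replicate 8 at the top, and its call (-0.95 ± 0.39, adjusted p = 0.047) was lost in each of 9 fits that left out 1 mouse, including the fit without replicate 7 (-0.74, adjusted p = 0.085). Plin2, the coat protein of hepatocyte droplets, was not past the threshold (-0.20 ± 0.17, adjusted p = 0.38). Without replicate 8, at 1510 CPM the only reversal mouse above 739, Plin2 fell by 0.53 (adjusted p = 0.0014).

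Among 27 fatty acid oxidation genes 5 rose and 5 fell, with a median of 0.12, near the 17% and 19.1% of all genes. Without replicate 7 the count that rose was 11. Cyp4a14, an omega-hydroxylase and target of PPARα with close paralogs, ranged from 3.06 CPM in replicate 7 to 553 CPM, with a median of 334 CPM, against 43.1 to 143 CPM in vehicle mice (1.68 ± 0.37, adjusted p = 0.00019). Cpt1a, the gate of mitochondrial oxidation, had a log2 fold change of 0.00 ± 0.18 (adjusted p = 1.0). Ucp2, a mitochondrial carrier, fell from a median of 104 CPM (84.5 to 149) to 28.4 CPM (20.4 to 56.4), by 1.70 ± 0.19 (adjusted p = 2.8e-11), and no mouse overlapped.

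Genes of hepatocyte function were mostly higher after reversal. In all, 10 of the 12 hepatocyte markers rose and 0 fell, and albumin (Alb) went from 29300, 37600 and 42200 CPM in vehicle mice to 53900, 71700 and 78100 CPM in reversal mice (0.90 ± 0.11, adjusted p = 1.5e-09). In the list of the urea cycle and amino acid breakdown 18 of 22 members rose and 0 fell, with a median of 0.68. Of all genes, 17% rose and 19.1% fell. Cps1, the first enzyme of the urea cycle, was at 886, 1730 and 2520 CPM under vehicle and at 1970, 3650 and 4630 CPM in reversal mice (0.99 ± 0.20, adjusted p = 4.3e-05). Ass1, which joins citrulline with aspartate, did not overlap between groups, at 2280 to 2830 CPM against 3530 to 6050 CPM (0.94 ± 0.14, adjusted p = 1.7e-07). Gnmt, which buffers the methyl donor S-adenosylmethionine, also did not overlap, at 565 to 1270 CPM against 1500 to 2680 CPM (1.37 ± 0.17, adjusted p = 6e-10). Gls2, the liver glutaminase, rose by 1.08 ± 0.15 (adjusted p = 6.8e-09) and Tat, tyrosine aminotransferase, by 1.68 ± 0.32 (adjusted p = 1.9e-05).

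In the list of the growth hormone axis and male-biased genes 12 of 20 members rose, 3 fell (Igfbp3, Stat5a and Mup20) and the median was 0.74. The shares over all genes were 17% that rose and 19.1% that fell. Igf1, the circulating growth factor that growth hormone induces, was at 193, 227 and 346 CPM under vehicle and at 270, 333 and 555 CPM in reversal mice (0.62 ± 0.13, adjusted p = 6.2e-05). Serpina1e, a male-biased member of the α1-antitrypsin cluster, was at 17.9, 55.9 and 120 CPM in vehicle mice and at 1970, 4470 and 8800 CPM in reversal mice. Every reversal mouse was far above every vehicle mouse, with a log2 fold change of 6.22 ± 0.88 (adjusted p = 3.1e-08), though reads from its near-identical paralogs may be shared. Hsd3b5, a male-specific steroid enzyme with close paralogs (chr3:98618634-98630252, minus strand), had 0.0, 0.0471 and 0.894 CPM under vehicle and 0.0589, 14.8 and 67.6 CPM after reversal (6.64 ± 1.46, adjusted p = 0.00015). Replicate 7, at 0.0589 CPM, lay within the vehicle range for this gene, and vehicle replicate 2 pulled the difference down, which was 7.69 without it. The major urinary proteins Mup7, Mup12 and Mup1, again near-identical in sequence, rose by 5.19 ± 1.11, 4.69 ± 0.81 and 3.87 ± 0.88 (adjusted p = 0.00012, 2.4e-06 and 0.00031), with reversal medians of 3250, 336 and 833 CPM. In Mup7 replicate 7 had 29.4 CPM and replicate 4 had 11200 CPM. Without vehicle replicate 1 the same 3 differences were 6.62, 5.29 and 4.86.

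Insulin and glucose genes and the clock changed less. Of 18 members of the insulin signalling and gluconeogenesis list 6 rose (10 without replicate 7) and 1 fell, with a median of 0.31. Of all genes, 17% rose and 19.1% fell. Pck1, which commits carbon to gluconeogenesis, rose from a median of 790 CPM (557 to 1610) to 1950 CPM (1130 to 3030), by 1.10 ± 0.26 (adjusted p = 0.0005). Of 17 clock genes 3 rose (Clock, Nr1d1 and Nfil3), close to the share of all genes, but 7 rose without replicate 7 and 5 without replicate 2. Dbp, an output gene of the clock, was at 2.24 CPM in replicate 7 where the reversal median was 131 CPM and the vehicle range 84.7 to 172 CPM (0.05 ± 0.36, adjusted p = 0.93). Times of day at which livers were taken are not given in the sources used here.

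Detoxification genes split in 2 directions. Of 24 xenobiotic metabolism genes 12 fell and 7 rose, against 19.1% and 17% of all genes, with a median of -0.66. Those that fell included glutathione transferases and Nqo1, a quinone reductase, which are targets of the oxidative stress factor NRF2. Gsta1, which shares sequence with Gsta2, went from 95.2, 429 and 941 CPM under vehicle to 7.78, 13.3 and 46.0 CPM after reversal (-4.31 ± 0.48, adjusted p = 2.3e-11), and Gstm3 from 425, 1050 and 2400 CPM to 59.8, 98.1 and 262 CPM (-3.0 ± 0.34, adjusted p = 7e-11). Neither gene overlapped between the groups. The cytochromes that rose included Cyp2e1 (1.05 ± 0.20, adjusted p = 2.6e-05), Cyp3a11 (0.78 ± 0.21, adjusted p = 0.0016) and Cyp2c29 (1.01 ± 0.24, adjusted p = 0.00049), while Cyp2b9, which is female-biased, fell (-2.30 ± 0.68, adjusted p = 0.0052). Replicate 7 was again the lowest reversal mouse for Cyp2e1, at 966 CPM against a group median of 6150 CPM.

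Genes of the scar fell together. Of 21 collagen genes 15 fell, against 19.1% of all genes, and 2 rose, with a median of -1.24, and for 9 the groups did not overlap, against 5.15% of all genes. Col1a1, a chain of the main fibrillar collagen of scars (chr11:94936224-94953042, plus strand), was at 62.4, 99.7 and 140 CPM in vehicle mice and at 8.16, 12.7 and 34.9 CPM in reversal mice. The groups were separate, and within the reversal group replicates 2, 6 and 7 (33.1 to 34.9 CPM) stood apart from the other 5 (8.16 to 12.9 CPM). It fell by 2.39 ± 0.33 on the log2 scale (adjusted p = 1.9e-08). Col3a1 fell by 2.28 ± 0.28 (adjusted p = 3.8e-10) and Col1a2 by 2.13 ± 0.24 (adjusted p = 4.6e-11). The 2 that rose were Col18a1 (0.62 ± 0.13, adjusted p = 0.00015), a basement membrane collagen made by hepatocytes, and Col5a3 (0.59 ± 0.20, adjusted p = 0.014). Of 24 other matrix genes 19 fell and 2 rose, with a median of -1.08. Postn, periostin, fell from a median of 15.6 CPM (14.5 to 25.1) to 3.62 CPM (2.63 to 6.44), without overlap (-2.16 ± 0.32, adjusted p = 7.6e-08), and Sparc fell by 1.42 ± 0.16 (adjusted p = 2.5e-11). Lum, the collagen-binding lumican, overlapped in part, at 21.9 to 46.3 CPM against 5.27 to 25.5 CPM (-1.35 ± 0.31, adjusted p = 0.00035). Both that rose, Fn1 (0.60 ± 0.18, adjusted p = 0.0064) and Vtn (0.65 ± 0.15, adjusted p = 0.00028), encode plasma proteins secreted by hepatocytes.

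Enzymes that build and break the matrix fell as a group too, 22 of 27 with 0 that rose and a median of -1.24. Of all genes, 19.1% fell and 17% rose. Timp1, the inhibitor of metalloproteases, was at 2.09, 5.09 and 8.31 CPM in vehicle mice and at 0.221, 0.794 and 2.89 CPM in reversal mice (-2.35 ± 0.39, adjusted p = 1.3e-06). Mmp12, the macrophage elastase, was at 29.6, 57.1 and 78.1 CPM against 1.79, 3.03 and 21.4 CPM (-3.27 ± 0.40, adjusted p = 5.4e-10). The value of 21.4 came from replicate 2, without which the difference was -3.93. 

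Stellate cell activation genes fell less, 14 of 21 with 0 that rose and a median of -0.62, where 19.1% of all genes fell. Tgfb1, which encodes the fibrogenic cytokine TGF-β1, fell from 20.0, 23.2 and 29.7 CPM to 6.56, 10.4 and 15.2 CPM, without overlap (-1.15 ± 0.16, adjusted p = 3.2e-08). Vim, vimentin, fell by 1.42 ± 0.20 (adjusted p = 1.5e-08). Acta2, smooth muscle actin of myofibroblasts and vessel walls, overlapped, at 4.97, 5.54 and 10.0 CPM under vehicle and at 1.22, 3.99 and 10.6 CPM after reversal, and was not past the threshold (-0.45 ± 0.26, adjusted p = 0.18). Replicate 7 gave the highest reversal value, and without it Acta2 fell by 0.71 (adjusted p = 0.022). In whole liver, fewer cells of a type and less RNA per cell cannot be told apart, and this holds for each cell type list.

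Macrophage genes showed a similar picture with a wider spread. Of 16 genes of lipid-associated macrophages 12 fell and 1 rose, against 19.1% and 17% of all genes, with a median of -1.79. Trem2, the lipid-sensing receptor that names these cells, was at 22.8, 28.5 and 71.1 CPM in vehicle mice and at 1.2, 2.30 and 17.4 CPM in reversal mice. The groups were separate, but replicates 2, 7 and 6, at 17.4, 8.89 and 6.33 CPM, were above the remaining 5, which lay from 1.2 to 2.32 CPM (-2.69 ± 0.43, adjusted p = 5.4e-07). Gpnmb, a lysosomal glycoprotein of the same cells, ranged from 4.64 to 71.5 CPM around a median of 7.39, against 53.6, 92.3 and 116 CPM under vehicle (-2.13 ± 0.43, adjusted p = 3.8e-05). Replicate 2, at 71.5 CPM, lay within the vehicle range, and without it the difference was -2.75. Lgals3, galectin-3, fell by 2.54 ± 0.32 (adjusted p = 1.2e-09). The 1 gene that rose, Fabp5 (1.02 ± 0.35, adjusted p = 0.017), was at 178 CPM in replicate 7 and at 22.0 to 50.0 CPM in the others, and the count that rose was 0 without that mouse. Of the Kupffer cell genes, which mark resident macrophages, 6 of 14 fell and 1 rose, with a median of -0.74, against the same shares of all genes (19.1% and 17%). Cd5l, a secreted macrophage protein, fell from 334, 402 and 600 CPM to 25.5, 54.1 and 194 CPM with no overlap (-2.62 ± 0.26, adjusted p = 5.8e-13), and Clec4f, a lectin found on Kupffer cells, fell by 1.4 ± 0.26 (adjusted p = 1.2e-05). Timd4, a marker of long-lived resident cells, was not past the threshold (-1.07 ± 0.55, adjusted p = 0.12), but was lower without replicate 7 (-1.79, adjusted p = 0.0089).

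Genes that draw in and hold monocytes and those that present antigen were lower in most mice. In the monocyte recruitment list 21 of 24 members fell and 1 rose, against 19.1% and 17% of all genes, with a median of -1.62. Ccr2, the receptor that monocytes follow, was at 8.25, 12.8 and 14.8 CPM in vehicle mice and at 1.58, 2.17 and 7.66 CPM in reversal mice (-1.94 ± 0.30, adjusted p = 2.3e-07). Its ligand Ccl2 was at 2.96, 7.55 and 10.8 CPM against 0.686, 1.07 and 3.12 CPM (-2.42 ± 0.33, adjusted p = 7.6e-09). The ligand ranges overlapped at their edges and the receptor ranges did not. The 1 that rose was Cxcl1, a neutrophil chemokine (1.56 ± 0.39, adjusted p = 0.001), with 117 and 104 CPM in replicates 7 and 8, and without these 2 mice 0 members rose. In the MHC class II list 9 of 10 members fell, against 19.1% of all genes, with a median of -2.04. For 8 of them every reversal mouse lay below every vehicle mouse, against 5.15% of all genes. Cd74, the invariant chain of MHC class II, was at 395, 576 and 1110 CPM under vehicle and at 59.7, 96.1 and 316 CPM after reversal (-2.03 ± 0.28, adjusted p = 1.9e-08), and the highest reversal mouse, replicate 2, was below the lowest vehicle mouse. Of 23 inflammation signalling genes 16 fell and 0 rose, with a median of -1.19. Tlr2, a receptor for bacterial lipoproteins, fell from 11.9, 13.4 and 22.8 CPM to 2.60, 3.08 and 7.42 CPM without overlap (-1.96 ± 0.19, adjusted p = 5.1e-13).

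Among markers of other cell types, the T and NK, dendritic and vascular endothelium lists had the largest shares of falls. Of all genes, 19.1% fell and 17% rose. The sinusoidal endothelium list, with a median of -0.1, was nearer to those shares. T and NK cell markers fell in 9 of 13 tested cases, with summed levels of 5.531 to 14.55 CPM in reversal and 9.33 to 31.44 CPM in vehicle mice, and dendritic cell markers in 4 of 7 (6.287 to 10.95 against 11.81 to 14.29 CPM). Vascular endothelium markers fell in 6 of 7 (124.6 to 188.9 against 186.4 to 275.3 CPM) and sinusoidal endothelium markers in 3 of 11, with 1 that rose (244.9 to 421.5 against 319.9 to 426.7 CPM). Fewer members differed in the other lists: 1 of 11 cholangiocyte markers fell (6 without replicate 7), 1 of 4 neutrophil markers fell, and 1 rose in each of the B and plasma cell list (Igha, of 9 tested) and the erythroid list (Alas2, of 5 tested). None of the 3 mesothelium, 2 adipocyte or 1 exocrine pancreas markers tested passed the threshold. The part of these cell types, and of the larger hepatocyte share of the counts, in the results of each gene list was not tested.

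**Figure D3:**
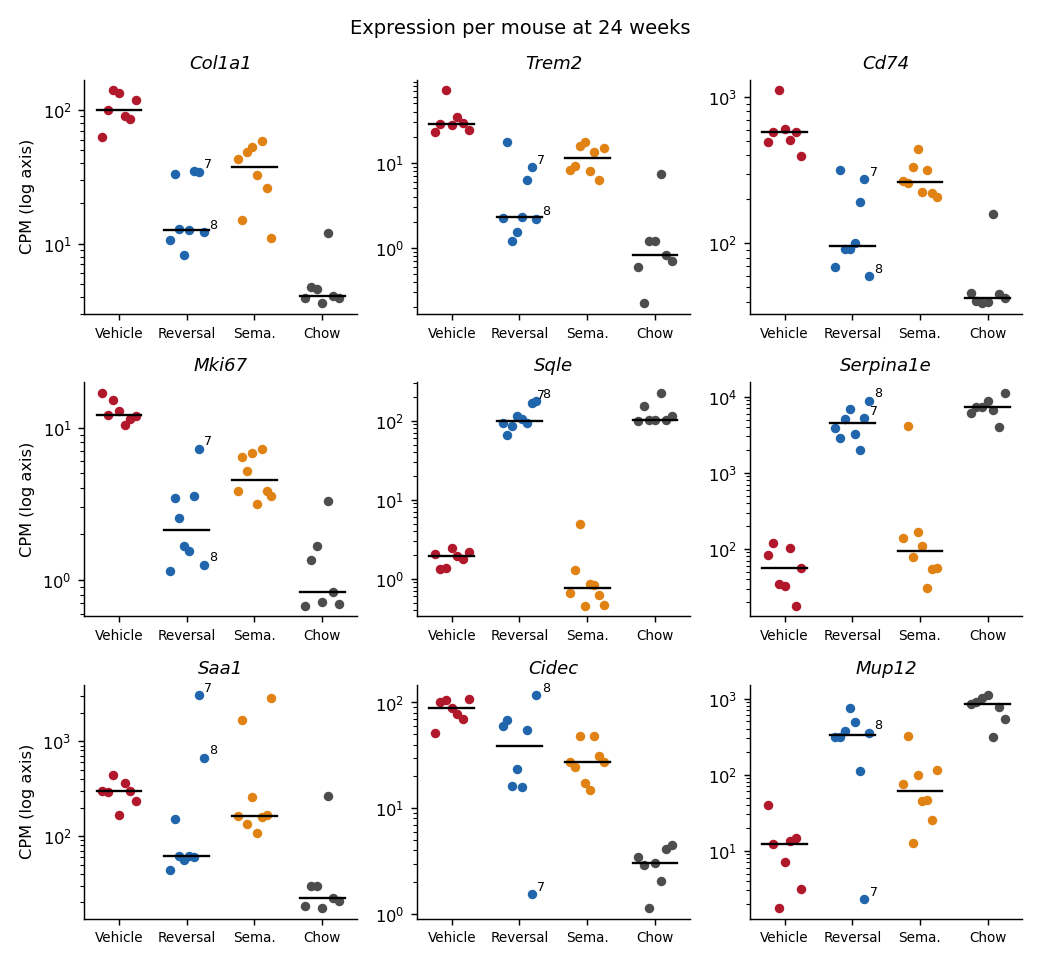
CPM on a log axis of 9 genes in each mouse of the 4 groups at 24 weeks, with horizontal lines at the group medians and numbers at reversal replicates 7 and 8. Sqle and Serpina1e sit above every vehicle mouse in all 8 reversal mice, Col1a1, Trem2, Cd74 and Mki67 sit below, and in Saa1, Cidec and Mup12 replicate 7 stands apart.

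Interferon-stimulated genes, which type I and II interferons induce through STAT and IRF factors, fell in 18 of 20 cases, with a median of -1.31. Of all genes, 19.1% fell. For 11 members every reversal mouse lay below every vehicle mouse, against 5.15% of all genes. Rsad2, the antiviral enzyme viperin, was at 12.6, 27 and 67.3 CPM in vehicle mice and at 3.81, 5.56 and 9.85 CPM in reversal mice (-2.26 ± 0.25, adjusted p = 1.6e-11). Ifit3, which binds foreign RNA ends, was at 20.2, 26 and 38 CPM against 9.98, 10.7 and 12.8 CPM (-1.29 ± 0.17, adjusted p = 3.3e-09). Neither overlapped, and the 8 reversal mice were close together, replicates 7 and 8 included. Isg15, a ubiquitin-like modifier, overlapped in part, at 7.54 to 20.7 CPM against 2.93 to 8.18 CPM (-1.15 ± 0.21, adjusted p = 1.1e-05). The 1 that rose was Mx2 (0.54 ± 0.21, adjusted p = 0.039), a call lost in 7 of the 15 fits without 1 mouse. The promoters of Isg15, Rsad2 and Ifit3 are shown because they carry the sequence by which such genes are known. They lie at chr4:156200769-156201068 (minus strand), chr12:26456403-26456702 (minus strand) and chr19:34583279-34583578 (plus strand) on GRCm38.p6, from RefSeq. Capitals mark matches on either strand to GAAA, any 2 bases and GAAA again, the core of an interferon-stimulated response element, and overlapping matches run together:
Isg15: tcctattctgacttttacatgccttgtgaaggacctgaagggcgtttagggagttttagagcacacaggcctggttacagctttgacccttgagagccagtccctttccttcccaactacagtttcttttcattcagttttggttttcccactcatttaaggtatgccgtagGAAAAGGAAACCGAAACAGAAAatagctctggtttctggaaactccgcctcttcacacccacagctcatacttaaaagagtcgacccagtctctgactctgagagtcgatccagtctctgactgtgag
Rsad2: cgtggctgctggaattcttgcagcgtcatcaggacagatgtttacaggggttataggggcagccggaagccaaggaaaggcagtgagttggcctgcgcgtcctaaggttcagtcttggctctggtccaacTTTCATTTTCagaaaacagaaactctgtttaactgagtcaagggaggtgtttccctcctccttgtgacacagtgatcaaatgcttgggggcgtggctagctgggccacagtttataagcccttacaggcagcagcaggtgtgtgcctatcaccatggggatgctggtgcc
Ifit3: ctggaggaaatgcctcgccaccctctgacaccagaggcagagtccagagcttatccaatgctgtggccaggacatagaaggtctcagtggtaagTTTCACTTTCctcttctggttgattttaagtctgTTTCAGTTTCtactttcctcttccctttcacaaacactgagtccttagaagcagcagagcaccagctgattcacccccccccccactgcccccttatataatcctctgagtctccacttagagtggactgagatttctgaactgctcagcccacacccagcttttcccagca
Of the 20 listed genes 14 had a promoter in the table, and 9 of their 16 promoters held this core, against 3.44% of all promoters.

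Cell division, injury and lysosomal genes were also lower. Of 20 proliferation genes 17 fell and 0 rose, against 19.1% and 17% of all genes, with a median of -1.83. For 13 of them every reversal mouse lay below every vehicle mouse, against 5.15% of all genes. Mki67, a marker of cycling cells, was at 10.4, 12.1 and 16.9 CPM in vehicle mice and at 1.14, 2.12 and 7.24 CPM in reversal mice, with replicate 7 the highest (-2.19 ± 0.27, adjusted p = 8.2e-10). Of 18 genes of injured and oncofetal hepatocytes 11 fell (14 without replicate 7) and 0 rose, with a median of -1.26. Ly6d, a surface protein of stressed hepatocytes, fell from 92.3, 106 and 205 CPM to 0.376, 4.07 and 29.2 CPM (-3.78 ± 0.62, adjusted p = 1e-06; -4.37 without replicate 7). Anxa2, annexin A2, fell from 126, 164 and 240 CPM to 11.5, 19 and 63 CPM (-2.62 ± 0.24, adjusted p = 4.8e-14). Neither gene overlapped between groups. Cdkn1a, the cell cycle inhibitor p21, was not past the threshold (-0.77 ± 0.41, adjusted p = 0.13): replicates 7 and 8 had 58.4 and 28.4 CPM, the other 6 reversal mice at most 5.70 CPM, and vehicle mice 16.8 to 28.8 CPM. Without replicate 7 it fell by 1.69 (adjusted p = 0.00018).

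Of 20 lysosome genes 13 fell and 2 rose (Lamp2 and Gaa), against 19.1% and 17% of all genes, with a median of -0.46. Ctsd, cathepsin D, was at 719, 871 and 1300 CPM under vehicle and at 407, 458 and 653 CPM after reversal, without overlap (-0.93 ± 0.12, adjusted p = 2.2e-09). Laptm5, which is found in lysosomes of leukocytes, fell by 1.86 ± 0.22 (adjusted p = 2.7e-10).

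Unfolded protein and integrated stress response genes rose in 13 of 18 cases and fell in 2, against 17% and 19.1% of all genes. The median was 0.7, but the count that rose rested on few mice. It was 7 without replicate 8 and 5 without replicates 7 and 8. Hspa5, the chaperone BiP, was at 380, 544 and 867 CPM in vehicle mice and at 572, 863 and 2060 CPM in reversal mice (0.92 ± 0.23, adjusted p = 0.0012). Replicates 8, 3, 7 and 6, at 2060, 1570, 1280 and 894 CPM, were above the vehicle range, and replicates 1 and 4 were at 589 and 572 CPM. Atf3, an early stress factor, was 1 of the 2 that fell, from 11, 12.2 and 19.3 CPM to 0.732, 2.22 and 7.60 CPM without overlap (-2.21 ± 0.30, adjusted p = 1.1e-08).

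The acute phase response divided the reversal group, and single mice of the semaglutide and chow groups at 24 weeks also stood apart. Saa1, a serum amyloid whose reads may be shared with Saa2, was at 166, 295 and 445 CPM in vehicle mice. In reversal mice it was at 3050 CPM in replicate 7 and at 671 CPM in replicate 8, and the other 6 lay from 43.8 to 153 CPM, below every vehicle mouse. The comparison of the whole groups was not past the threshold (0.80 ± 0.65, adjusted p = 0.36), and without both mice Saa1 fell by 2.04 (adjusted p = 0.004). Lcn2, the iron-withholding lipocalin 2, had the same split, with 914 and 458 CPM in replicates 7 and 8, 11 to 34.0 CPM in the other 6 and 151 to 280 CPM under vehicle (-0.11 ± 0.66, adjusted p = 0.92). Without both mice it was -3.54 (adjusted p = 4.7e-06). Over the list 9 of 24 members rose and 3 fell, against 17% and 19.1% of all genes, with a median of 0.62. Without replicate 7 the counts were 7 and 7, and without replicates 7 and 8 they were 5 and 11, with a median of -0.298. Fga, a fibrinogen chain, rose in the whole group (1.32 ± 0.20, adjusted p = 2.2e-07), with 14000 and 11400 CPM in replicates 7 and 8, and still rose without them (0.66, adjusted p = 0.00027). The vehicle mice stood at 2070 to 2820 CPM and all 8 reversal mice at 3080 CPM or above. Outside the reversal group, Saa1 was at 1670 and 2838 CPM in semaglutide replicates 2 and 8 of 24 weeks. The other semaglutide mice lay from 106.8 to 261 CPM. Chow replicate 5 had 263.7 CPM, where the other chow mice lay from 17.35 to 30.06 CPM. No record of illness, injury or fasting of single mice was found in the sources used here.

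**Figure D4:**
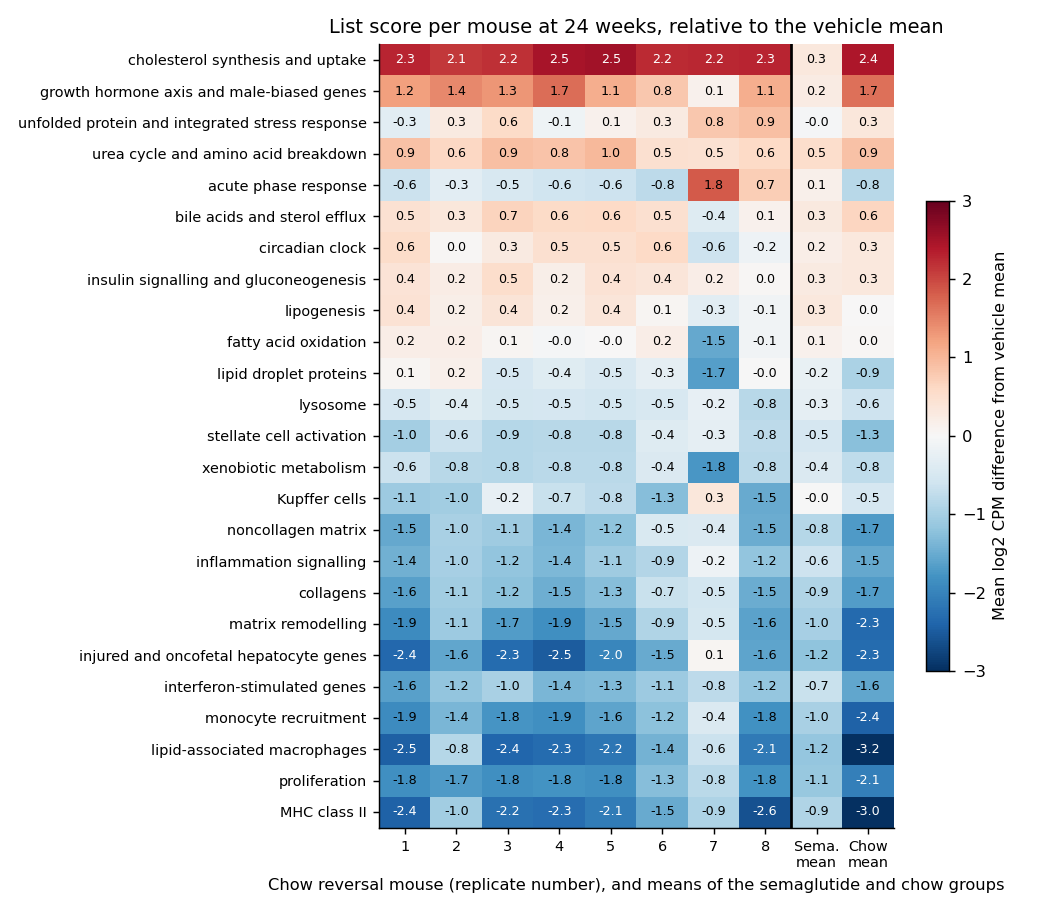
Score of each gene list in each of the 8 reversal mice, with the semaglutide and chow group means at the right, as the mean log2 CPM of the members relative to the vehicle mean (colour and number). Replicate 7 has the highest acute phase score (1.84) and the lowest lipid droplet (-1.66), fatty acid oxidation (-1.53) and xenobiotic (-1.75) scores, while the cholesterol score is 2.13 to 2.51 in all 8 mice.

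The 10 largest falls included several genes that few reversal mice still had at more than trace levels. Cyp2a4, a female-biased steroid hydroxylase whose reads can be shared with Cyp2a5, was at 56.7, 642 and 1770 CPM in vehicle mice and at 0.915, 1.88 and 19.8 CPM in reversal mice (-7.16 ± 0.94, adjusted p = 3.2e-09). Replicate 6 had the 19.8, and the difference without it was -8.20. Sprr1a, a cornified envelope protein, was at 7.15 to 14.7 CPM under vehicle and at 0.0 to 0.707 CPM after reversal (-6.17 ± 0.59, adjusted p = 8e-14; -7.24 without replicate 8). Tekt5, a ciliary tektin, fell by 6.57 ± 0.70 (adjusted p = 5.6e-12), Il1f9, a cytokine of the interleukin-1 family, by 5.67 ± 0.51 (adjusted p = 1.3e-14), and Cbr3, a carbonyl reductase, by 5.36 ± 0.47 (adjusted p = 5.1e-15). The groups did not overlap in any of these 5. Ephb2, a receptor tyrosine kinase, was at 19.4, 26.2 and 32.9 CPM against 0.150, 0.827 and 1.51 CPM (-4.96 ± 0.42, adjusted p = 2.1e-15), and Elovl7, Gpx2, Gsta1 and Gipc2 completed the 10 largest falls. Among the 10 largest rises, beside those given above, Adgrf1, an adhesion receptor, did not overlap (0.0478 to 0.566 CPM against 1.53 to 7.24 CPM, 4.03 ± 0.42, adjusted p = 3.1e-12), and Slc13a2, a citrate carrier, rose by 3.59 ± 0.57 (adjusted p = 3.6e-07). Prtn3, neutrophil proteinase 3, was past the threshold (3.95 ± 1.05, adjusted p = 0.0018) through replicate 7 alone, at 93.5 CPM where the other 7 lay from 0.0553 to 2.28 CPM, and without that mouse its log2 fold change was -0.41 (adjusted p = 0.76).

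How close reversal came to lifelong chow feeding was read from the chow group, which was not randomized. Between reversal and chow mice 988 genes (6.63%) differed, 852 (5.72%) higher and 136 (0.913%) lower in reversal mice, against 7121 (47.8%) between vehicle and chow mice. For cholesterol synthesis 0 of 24 genes differed between reversal and chow mice in either direction (median -0.12), where all 24 were lower in vehicle than in chow mice (median -2.26). In the urea cycle list likewise 0 of 22 differed between reversal and chow mice (median -0.14), and in the bile acid list 0 of 26 were higher and 3 lower. With 6.63% of all genes past the threshold, a count of 0 in lists of this size is near the share of all genes. Genes of the scar and of recruited macrophages differed in larger numbers, higher in reversal mice: 17 of 27 matrix remodelling genes, 12 of 16 lipid-associated macrophage genes, 14 of 24 noncollagen matrix genes, 12 of 24 monocyte recruitment genes, 9 of 21 stellate genes, 8 of 10 MHC class II genes and 7 of 21 collagen genes were higher, against 5.72% of all genes, and 1 noncollagen matrix gene was lower. Other lists were above that share as well. Injured and oncofetal hepatocyte genes were higher than in chow mice in 9 of 18 cases (median 0.96). Inflammation signalling genes were higher in 7 of 23, acute phase genes in 7 of 24, proliferation genes in 4 of 20 and lipid droplet genes in 4 of 17. In each of these lists 0 genes were lower. In the Kupffer cell list 0 of 14 were higher and 1 lower. These counts depended on the mice and on the fit. Without replicate 7 there were 469 genes in all, of which 12 in matrix remodelling, 7 in lipid-associated macrophages and 8 in MHC class II were higher, and with only these 2 groups in the fit there were 129 genes, of which 6 of 19, 4 of 16 and 2 of 9 tested members of these 3 lists were higher.

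Single genes show what remained. Gpnmb was at 0.151, 0.298 and 0.843 CPM in chow mice, and all 8 reversal mice were above that range (5.57 ± 0.63, adjusted p = 2.7e-09). Cidea, a droplet protein of fat-loaded hepatocytes, was at 0.0, 0.673 and 1.32 CPM in chow and at 0.412, 11.9 and 38.6 CPM in reversal mice (4.49 ± 0.57, adjusted p = 5.1e-08), and its vehicle level, 6.29 to 19.1 CPM, lay inside the reversal range. A4gnt, a glycosyltransferase, and Lrtm2, a leucine-rich repeat protein, were also higher than in chow (4.15 ± 1.02 and 4.05 ± 0.75, adjusted p = 0.0025 and 0.00013), but Lrtm2 was at 2.97 without reversal replicate 7 and at 5.86 without chow replicate 5. Saa2 was higher too (4.17 ± 0.78, adjusted p = 0.00018), a call lost without replicates 7 and 8 (1.05, adjusted p = 0.49) and when only these groups entered the fit (adjusted p = 0.13), and its difference was 1.98 without replicate 7 and 5.65 without chow replicate 5. The largest deficits were in Meg3, Rian, Chil3, Cyp2c69 and Kcnt2, at -4.07 to -2.84, and these rested on chow replicate 5, the chow mouse at 26.6 on component 1. Meg3, an imprinted noncoding RNA, reached 255 CPM in that chow mouse where the chow median was 6.19 CPM. Without it Meg3 differed by -1.2 (adjusted p = 0.019), the differences for Rian, Cyp2c69 and Kcnt2 were not past the threshold, Chil3 was higher in reversal mice (3.02, adjusted p = 0.019), and the number of genes that differed between the groups was 1334.

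Semaglutide on continued diet and chow reversal gave different livers at 24 weeks, and 2457 genes (16.5%) differed between them, 1158 higher and 1299 lower under semaglutide. The clearest difference was in cholesterol synthesis, where 23 of 24 genes were lower under semaglutide, against 8.72% of all genes. Sqle was at 0.457, 0.757 and 4.94 CPM in semaglutide mice, below the 65.9 CPM of the lowest reversal mouse (-6.42 ± 0.40, adjusted p = 2.1e-21). Relative to vehicle Sqle was not past the threshold (-0.52, adjusted p = 0.38). Of the 24 genes, 8 were higher under semaglutide than under vehicle and 0 lower (median 0.31), against 10.8% of all genes higher. Abcg5, the sterol pump, was higher under semaglutide than after reversal, at 140, 250 and 317 CPM (2.16 ± 0.18, adjusted p = 8.5e-16). Interferon-stimulated genes were higher in 12 of 20 cases, MHC class II genes in 9 of 10 and Kupffer cell genes in 8 of 14, against 7.77% of all genes. Cd5l was at 182, 230 and 407 CPM in semaglutide mice (1.98 ± 0.25, adjusted p = 1.4e-08). In the scar lists 2 of 21 collagen genes, 3 of 24 noncollagen matrix genes, 3 of 21 stellate genes and 5 of 27 matrix remodelling genes were higher under semaglutide and 1 remodelling gene was lower. Col1a1, at 11.1, 37.8 and 58.4 CPM, was not past the threshold (0.86 ± 0.32, adjusted p = 0.051). Relative to the same vehicle mice, which both comparisons share and from which 3625 genes (24.3%; 36.5% at an unadjusted p under 0.05) differed with semaglutide, collagen genes fell in 15 of 21 cases with semaglutide (median -1.0) and in 15 of 21 with reversal (median -1.24). With only these groups in the fit 515 genes differed between semaglutide and reversal.

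Reversal was also compared at 8 and 16 weeks with the vehicle mice of the same time, which were other mice throughout. At 8 weeks 4782 genes (32.1%) were past the threshold and 42.8% had an unadjusted p under 0.05, and at 16 weeks these were 4207 (28.2%) and 37.7%. Cholesterol synthesis rose in 24 of 24 cases at each time, with medians of 2.2, 2.27 and 2.23 at 8, 16 and 24 weeks. Collagen genes fell in 15, 15 and 15 of 21 cases (medians -1.05, -0.9 and -1.24), proliferation genes in 18, 17 and 17 of 20, and interferon-stimulated genes in 12, 18 and 18 of 20, against 17.9%, 16.2% and 19.1% of all genes that fell. The stress response list rose in 3, 5 and 13 of 18 cases and the acute phase list in 3, 3 and 9 of 24, against 14.2%, 12.1% and 17% of all genes that rose. Replicates 7 and 8 weighed on the last count of both lists, as given above. Whether the effect itself differed between 24 and 8 weeks was tested as an interaction. It passed the threshold for 32 genes (0.215%), 31 (0.208%) more negative and 1 (0.00671%), Nebl, more positive at 24 weeks (2033, 13.6%, at an unadjusted p under 0.05), and between 24 and 16 weeks for 0 genes by edgeR (497, 3.33%, at an unadjusted p under 0.05, and 4 by DESeq2). Among the 32 were 0 of the 18 stress response genes. Of the 24 acute phase genes 1 was included, and of the 20 interferon-stimulated genes 2, all more negative at 24 weeks. Larger counts for a list at 24 weeks than at 8 weeks therefore do not by themselves show a larger effect.

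In the 5 genes with the most negative difference that the naming rule chose, vehicle means were higher at each later time while reversal means stayed low. Il1f9 had means of 0.418, 2.20 and 9.48 CPM (SD 0.217, 1.86 and 7.67) in vehicle mice at 8, 16 and 24 weeks and 0.213, 0.167 and 0.181 CPM in reversal mice, and the log2 effect of reversal at 24 weeks minus that at 8 weeks was -4.83 ± 0.81 (adjusted p = 0.00023). Cyp2a4 had means of 17.1, 118 and 613 CPM under vehicle and 4.98, 3.76 and 4.32 CPM after reversal (difference -5.42 ± 1.12, adjusted p = 0.0089). Cbr3, at 5.16, 25.3 and 97.5 CPM under vehicle and 1.47, 1.07 and 2.35 CPM after reversal, differed by -3.58 ± 0.65 (adjusted p = 0.0014). Sfn, the cell cycle adaptor stratifin, differed by -3.26 ± 0.53 (adjusted p = 0.00018), and Gpx2, a selenium-dependent peroxidase, by -4.24 ± 0.96 (adjusted p = 0.03). Also among the 32, named after their values were seen, were the detoxification genes Nqo1 (-1.44), Gsta1 (-2.59), Gstm1 (-1.32), Gstm4 (-1.04) and Cbr1 (-1.58) and the interferon-stimulated Rsad2 (-1.70) and Oasl1 (-1.59). Nebl, the actin-binding nebulette, was the 1 gene in the other direction, at 2.06, 1.85 and 1.33 CPM under vehicle and 2.11, 3.60 and 3.98 CPM after reversal (1.54 ± 0.37, adjusted p = 0.044). When single mice of 24 weeks were left out in turn (15 fits), Il1f9, Cbr3 and Sfn stayed past the threshold in all 15, Cyp2a4 missed it without vehicle replicate 1 (adjusted p = 0.053), Gpx2 missed it in 5 fits (adjusted p = 0.051 to 0.11) and Nebl in 10 (adjusted p = 0.054 to 0.12). When the fit held only the groups compared, Cbr3 (adjusted p = 0.06), Gpx2 (0.17) and Nebl (0.06) missed it, and with sets of consecutive library numbers as a term Cyp2a4, Gpx2 and Nebl did (each adjusted p = 0.054). The count of 32 was not stable: it was 9 without vehicle replicate 1 and 122 without reversal replicate 7.

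**Figure D5:**
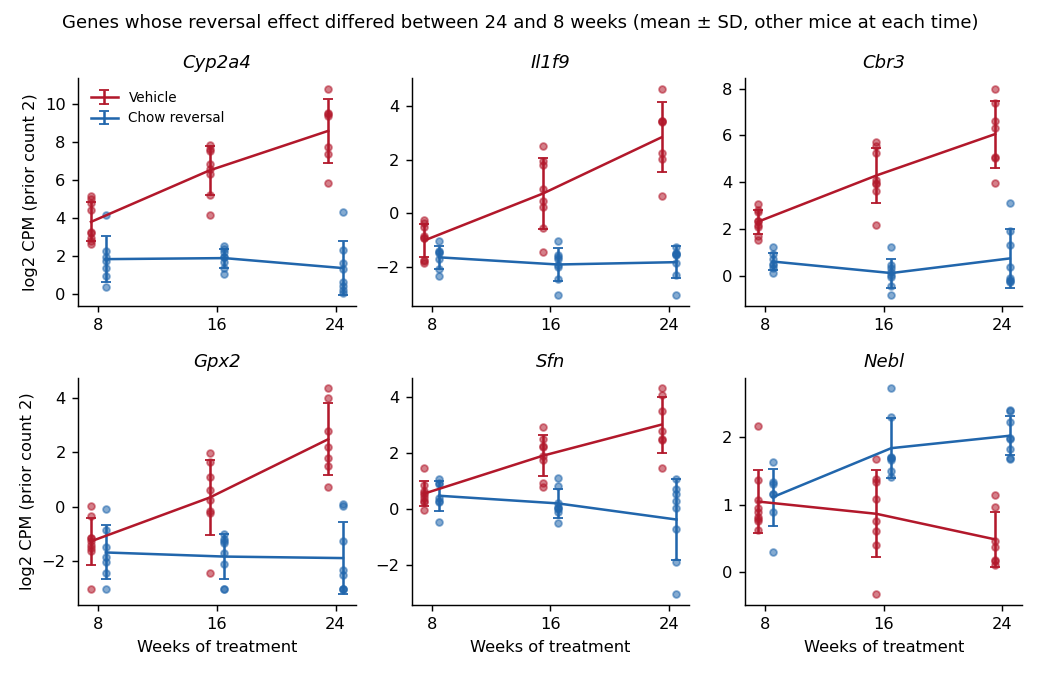
Log2 CPM of 6 genes by weeks of treatment in vehicle and chow reversal mice, 1 point per mouse with group means and SD, different mice at each time. In the first 5 genes, which were chosen for this difference, vehicle means are higher at each later time and reversal means stay low, and in Nebl vehicle means are lower at each later time. The change over time within vehicle mice was not tested.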

How the data were processed

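Total RNA was taken from the left lateral lobe of each liver, made into directional NEBNext Ultra II libraries and sequenced on a NextSeq instrument. The values used were estimated counts per gene that the authors deposited for all 77 libraries. The submitters' processing notes name STAR 2.7.3a, Salmon 1.2.0, FastQC 0.11.9, Picard, DESeq2 and the build GRCm38. The annotation release and the strand setting of the counting were not given in the sources used here, so overlapping and antisense genes may share counts. Estimated counts (7.55% of values fractional) were rounded to whole numbers. Totals ranged from 8883150 to 37631072 per library (median 16406937). The 260 of 55487 identifiers without a symbol held 0.0155% of counts.

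Groups came from the treatment labels, and 0 columns were left unused. Genes were filtered by group with filterByExpr, scaled by TMM and tested with edgeR 4.0.16 in R 4.3.3 (quasi-likelihood test, all 10 groups in 1 fit, Benjamini-Hochberg adjustment). The standard error is the unshrunk log2 fold change divided by the square root of F. DESeq2 1.42.0 and limma 3.58.1 (voom with sample quality weights), other scalings, no filter, the compared groups alone, sets of 10 consecutive library numbers as a term and the omission of each mouse served as alternatives. Log2 CPM for scores and components used a prior count of 2.

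The members and lists were chosen with earlier results of these data known. Named genes were the key genes of each list, up to 3 further members with the smallest p, the 10 largest rises and falls (without predicted genes or those averaging 0 or less in log2 CPM) and the 5 largest differences each way between weeks and from chow. Other list members were named as examples after their values were seen. Omission of replicates 7 and 8 together, of single chow mice and of single mice in the comparison of weeks, and the motifs CCAAT and the interferon response core, were added after seeing the data. On simulated counts for reversal against vehicle at 24 weeks, edgeR recovered 23 of 49 genes changed 1.5-fold, 39 of 50 changed 2-fold, 49 of 50 changed 4-fold and 48 of 50 changed 8-fold, and called 8 of 14587 unchanged genes. Some genes of the lists are counted but not reported here by name.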

Additional observations from a re-analysis of the deposited data

Results flagged for a closer look

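Gaps of the highest or lowest mouse from its group were larger than Dixon's 95% critical value in 13 of 54 tests on list scores, component 1 and the correlation with the rest of the group, and in 25 of 282 on named genes, and chance flags about 1 in 20 groups. The same 15 mice enter all of these tests, so the flags are not independent. Reversal replicate 7 alone gave 12 of the 25 on named genes. Scores are mean log2 CPM relative to the vehicle mean. Reversal replicate 7 stood apart as the highest reversal mouse in monocyte recruitment (-0.43), inflammation signalling (-0.16) and injured and oncofetal hepatocyte genes (0.06). It was the lowest in lipid droplet proteins (-1.66), fatty acid oxidation (-1.53) and xenobiotic metabolism (-1.75).

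Vehicle replicate 3 had the lowest correlation with the rest of its group (0.9592), the lowest scores for inflammation signalling (-0.46) and the circadian clock (-0.30) and the highest for injured and oncofetal hepatocyte genes (0.51). Vehicle replicate 1 was lowest in matrix remodelling (-0.54) and stellate cell activation (-0.46) and highest in proliferation (0.32).

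The effect of reversal differed between 24 and 8 weeks for 32 genes by the edgeR test of the difference itself. The named ones were Cyp2a4 (-5.42), Il1f9 (-4.83), Cbr3 (-3.58), Gpx2 (-4.24), Sfn (-3.26) and Nebl (1.54), each the log2 fold change at 24 weeks minus that at 8 weeks.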

How the results depend on the processing

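Of 141 named genes, 124 kept their direction and side of the threshold under all 23 settings and 127 under all but library totals. Akt2 turned to -0.0398 with library totals. Prtn3 turned to -0.5032 by DESeq2, -1.2421 by voom, -0.4067 without reversal replicate 7 (up to 4.1827 without other single mice) and -1.304 without replicates 7 and 8. At 24 weeks reversal against vehicle gave 687 higher and 5453 lower genes with library totals, and 3585 of 13632 genes (1388 higher) when the fit held only those groups. At 8 weeks the same restriction gave 6440 genes in place of 4782, and the cause of these shifts was not tested. The comparison at 24 weeks gave 4908 to 6117 genes when single mice were left out. Voom gave 7775 genes at 8 weeks, and for the acute phase list 5 higher and 11 lower. Reversal against chow gave 520 genes by voom, 129 with only these groups, and 458 to 1334 without single mice or replicates 7 and 8. Semaglutide against reversal gave 515 with only these groups. The 24 minus 8 week difference gave 59 genes by DESeq2, 1030 by voom, 8 with only these groups, 68 without replicates 7 and 8, and 9 to 122 without single mice. It was 16, 70, 17, 19, 15, 122 and 21 without reversal replicates 1, 2, 3, 4, 5, 7 and 8, and 9, 51, 15, 60, 18 and 57 without vehicle replicates 1, 2, 3, 5, 6 and 7. The 24 minus 16 week difference gave 4 by DESeq2 and 0 to 2 without single mice. Where no value is given for it, the cause was not tested. Depth was similar in both groups, and the self-test recovered 23 of 49 changes of 1.5-fold, so small changes may be missed. No paired analysis was possible because the labels give each mouse its own number and no number shared across groups marks a common source.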
